A study of Mus musculus with 15 samples.

Results

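Conjugated estrogens (CE) were compared with vehicle (Veh) in mouse liver, over every gene of the deposited table. The comparison used the 3 CE mice and the 3 Veh mice, 6 of the 15 mice in the series, and 2545 genes. All mice were ovariectomized C57BL/6 females (C57BL/6J in the methods of the study) fed a high-fat diet that drew 45% of its calories from fat and held 0.2% cholesterol, started at 8 weeks of age, with surgery at 10 weeks and treatment for 6 weeks. CE was given at 2.5 mg per kg per day from an implanted pump, and Veh was 43% DMSO, 15% ethanol and 42% saline. The 9 other mice received estradiol (E2, 5 μg per kg per day from a pellet), bazedoxifene (BZA, at a daily 3 mg per kg) or both CE and BZA (CE+BZA), 3 mice each. Every group therefore shared the diet and the loss of ovarian estrogen, and 8 mice per group had been treated in the study. Whole-liver RNA was sequenced, 1 library per mouse, and mice are named here by their group and the number in the sample descriptions.

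Conjugated estrogen preparations contain several estrogens at once, largely as sulfate esters, and serve as hormone therapy after menopause. Estrogens bind the estrogen receptors, which in hepatocytes are mostly ERα, and the activated receptor binds DNA at estrogen response elements or acts through other transcription factors. In the liver, estrogen is known for its effects on lipid handling, on secreted plasma proteins and, through the pattern of growth hormone release, on genes that differ between the sexes. BZA is a selective estrogen receptor modulator, which acts as an agonist in some tissues and an antagonist in others.

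Values are on a log2 scale centred on the 15-mouse median of the gene, so that a value of 1 is 2-fold above that median and levels cannot be compared between genes. The table is a selection. In all 2545 genes the mean of at least 1 treatment differed from the Veh mean by more than 1 on the log2 scale, which was found by testing the table itself. A gene could therefore be listed because of its difference in CE, and counts of list members given here describe the table and not the whole pathway. Low values had been raised to a lowest value, and in 1045 genes (41.1%) at least 2 mice sat at it. Read totals per mouse are not in the table, so the depth behind each value is unknown. The median SE of a CE minus Veh difference was 0.64.

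Upstream sequences of 3 genes are shown because Gsta1 and Gsta2, glutathione S-transferase genes that lie near each other on chromosome 9, were both lower in CE, and because Cyp3a44 had the largest positive difference among the listed P450 genes. Each is the 250 bases before the RefSeq start (GRCm38.p6), on the strand of the gene, chr9:78230419-78230668 (plus), chr9:78347146-78347395 (minus) and chr5:145805875-145806124 (minus). The Gsta2 window lies inside the GENCODE span of that gene (chr9:78331018-78355788), whose start differs from the RefSeq start. Capitals mark the longest run shared by Gsta1 and Gsta2, 29 bases, which ends 90 bases before the Gsta1 start and 93 before that of Gsta2. In Cyp3a44 they mark a half-site of the estrogen response element, 149 to 145 bases before the start.
Gsta1: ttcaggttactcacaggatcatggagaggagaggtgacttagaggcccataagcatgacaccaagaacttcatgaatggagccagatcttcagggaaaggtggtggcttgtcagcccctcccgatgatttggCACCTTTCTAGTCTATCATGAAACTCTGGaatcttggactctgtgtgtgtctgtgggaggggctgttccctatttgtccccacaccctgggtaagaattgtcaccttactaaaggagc
Gsta2: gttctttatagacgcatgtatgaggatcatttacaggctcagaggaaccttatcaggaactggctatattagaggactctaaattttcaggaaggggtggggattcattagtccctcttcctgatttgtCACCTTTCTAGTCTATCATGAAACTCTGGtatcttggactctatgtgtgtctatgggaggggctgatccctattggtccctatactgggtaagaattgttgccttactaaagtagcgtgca
Cyp3a44: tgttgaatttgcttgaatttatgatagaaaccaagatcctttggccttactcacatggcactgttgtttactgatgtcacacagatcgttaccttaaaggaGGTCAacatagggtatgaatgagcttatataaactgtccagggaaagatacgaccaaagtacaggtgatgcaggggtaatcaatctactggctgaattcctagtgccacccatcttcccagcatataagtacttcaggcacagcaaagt

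The Gsta1 and Gsta2 sequences were identical at 184 of 261 aligned columns (70.5%). The full estrogen response element, GGTCANNNTGACC, was searched for on both strands in windows from 250 bases before to 50 after each start. It was in 23 of 32851 mouse promoters (0.0700%) and in 0 of the 1745 promoters of genes in the table. The half-site GGTCA, which the full element contains, was in 40.5% of all promoters and 42.3% of the 1745 promoters of genes in the table, in 42.6% of the 190 promoters of genes higher in CE and in 47.4% of the 156 promoters of genes lower in CE (genes at an unadjusted limma p under 0.05 and a fold change above 2). The windows of Mogat1, Gsta1, Gsta2 and Pla2g4f held no half-site. Enho had no entry among the promoters used, so its window was not searched.

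One CE library stood apart. In CE mouse 3 the mean of the 25 neutrophil-lineage genes in the table was 4.56, against 0.04 and 0.67 in CE mice 6 and 7 and -0.56 to -0.06 in the Veh mice, and 131 genes were more than 2 above both other CE mice, against 13 and 28 such genes for the others. BZA mouse 3 had a mean of 5.05 over 23 pancreas and gut genes and of 3.21 over 15 adipocyte genes, and it entered the shared estimate of the spread and every BZA mean given here. The label of the tissue could be checked little, because the table held 3 of 35 hepatocyte-defining genes. No pair of mice had identical values (0 pairs). In bulk liver RNA, more cells of a type and more RNA per cell cannot be told apart.

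**Figure D1:**
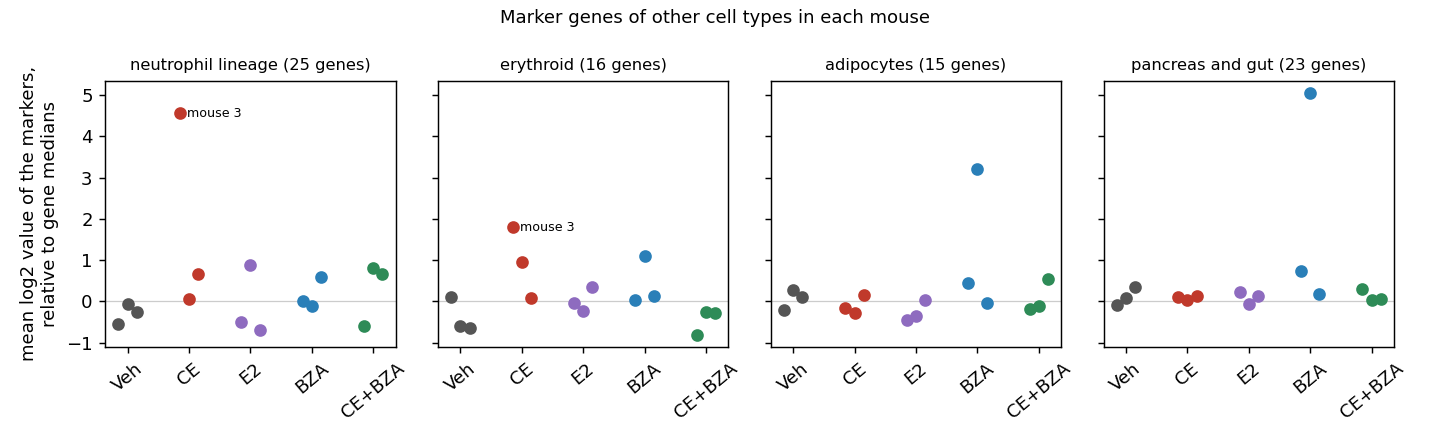
Mean log2 value of marker genes of 4 cell types in each of the 15 mice, relative to the median of each gene; each point is 1 mouse, and the number of genes is in each panel title. CE mouse 3 lies at 4.56 for the neutrophil lineage, and BZA mouse 3 at 5.05 for pancreas and gut and 3.21 for adipocytes.

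Between CE and Veh, 4 genes passed after correction over the table. Enho was up-regulated, and Mogat1, Pla2g4f and Gsta1 were down-regulated. Enho encodes adropin, a secreted peptide of energy homeostasis, Mogat1 a monoacylglycerol acyltransferase of triglyceride synthesis, Pla2g4f a cytosolic phospholipase A2, and Gsta1 a glutathione S-transferase. Genes were called at a fold change above 2 and a false discovery rate (FDR, Benjamini-Hochberg over the 2545 genes, from limma fitted to all 15 mice) under 0.05. That left 1 gene higher (0.0393% of genes tested) and 3 lower (0.118%). Every gene of the table already differed from Veh by more than 1 in some treatment, the kind of difference tested here. This FDR therefore does not refer to all expressed genes, and within the table it may understate the rate of false calls. The smallest FDR of a gene that did not pass was 0.0597, and 10 genes had an FDR under 0.1.

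Enho (chr4:41638144-41640324, minus strand, GRCm38, protein coding) was 2.10, 1.03 and 1.36 in CE mice 3, 6 and 7 and -2.18, -3.09 and -1.56 in Veh mice 1, 4 and 7. Every CE mouse was above every Veh mouse by more than 2 log2 units. The difference was 3.77 ± 0.58 (log2, SE), a 13.7-fold higher level, at an FDR of 0.0140. Mogat1 (chr1:78510991-78538173, plus strand) was -0.75, -1.11 and 0.18 in the CE mice and 2.31, 2.04 and 2.25 in the Veh mice. The Veh mice lay within a narrow band that no CE mouse approached. The difference was -2.76 ± 0.50, or 0.148 of the Veh level, at an FDR of 0.0352.

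Pla2g4f (chr2:120299957-120314165, minus strand) was -0.87, 0.00 and -1.06 in the CE mice and 2.93, 2.81 and 1.41 in the Veh mice. The groups did not overlap, and Veh mouse 7 was the nearest to the CE mice. The difference was -3.03 ± 0.54, or 0.123 of the Veh level, at an FDR of 0.0352. In this gene 4 mice of all 15 sat at the lowest value, none of them a CE or a Veh mouse. Gsta1 (chr9:78230656-78242684, plus strand) was -1.05, -0.79 and 0.00 in the CE mice and 1.96, 1.33 and 2.53 in the Veh mice. Again all 3 CE mice were below all 3 Veh mice. The difference was -2.56 ± 0.49, or 0.170 of the Veh level, at an FDR of 0.0462. Gsta1 has near-identical relatives, among which the authors' counting could have split reads.

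The 4 calls were not stable when single mice were left out. Leaving out a mouse also makes its group smaller, and the part of each was not tested. Without CE mouse 3 the differences were 3.47 for Enho, -2.66 for Mogat1, -2.91 for Pla2g4f and -2.34 for Gsta1, and no gene of the table passed in either direction. The counts were also 0 and 0 without Veh mouse 1 or Veh mouse 4, and 1 higher and 1 lower without CE mouse 6 or Veh mouse 7. Without CE mouse 7 they were 2 higher and 3 lower.

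**Figure D2:**
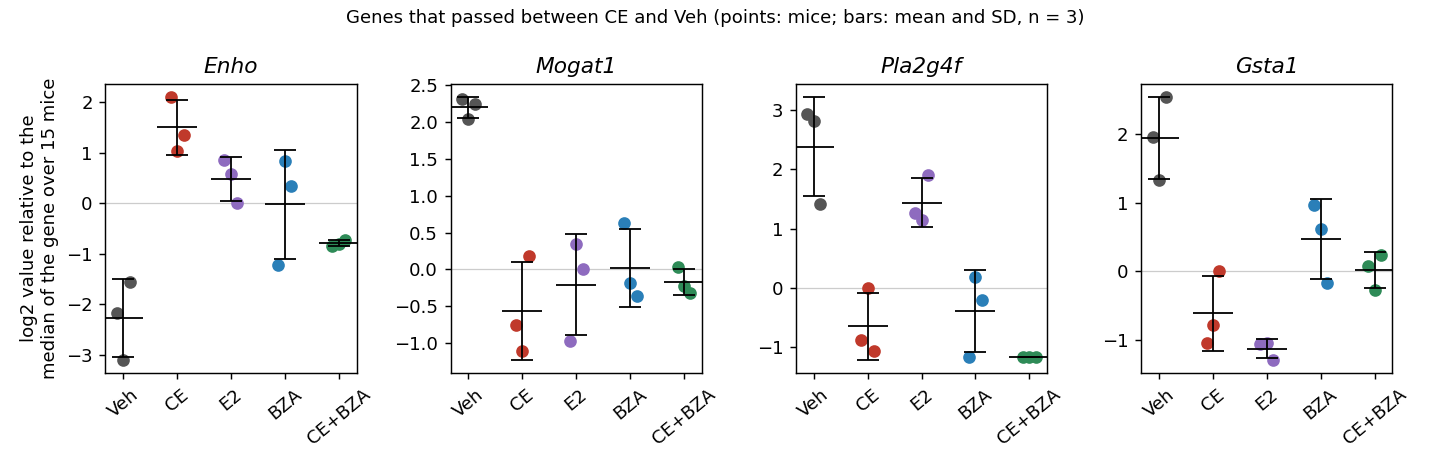
Log2 values of Enho, Mogat1, Pla2g4f and Gsta1 in the 15 mice, relative to the median of each gene; points are mice, and the bars are the mean and SD of 3 mice. The CE and Veh points do not overlap in any panel, with differences of 3.77, -2.76, -3.03 and -2.56.

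The other treatments are given beside these values, but each was set against the same 3 Veh mice, so the differences share their control. Enho differed from Veh by 2.75 in E2, 2.25 in BZA and 1.48 in CE+BZA. Mogat1 differed by -2.41, -2.18 and -2.37 in the same order, Gsta1 by -3.08, -1.47 and -1.93, and Pla2g4f by -0.94, -2.77 and -3.55. Without BZA mouse 3 the BZA values were 1.83 for Enho, -2.07 for Mogat1, -1.55 for Gsta1 and -3.06 for Pla2g4f. Set directly against the other treatments, Enho was 1.02 higher in CE than in E2 (95% interval -0.20 to 2.24), 1.52 higher than in BZA (0.30 to 2.74, FDR 0.394) and 2.29 higher than in CE+BZA (1.07 to 3.51, FDR 0.146). Pla2g4f was 2.08 lower in CE than in E2 (95% interval of CE minus E2 -3.21 to -0.95, FDR 0.282), and its difference from BZA was -0.25 (-1.38 to 0.88), or 0.04 without BZA mouse 3. For Pla2g4f the interval of CE minus CE+BZA was -0.61 to 1.65, with all 3 CE+BZA mice at the lowest value. For Mogat1 the intervals of CE minus E2 and CE minus CE+BZA were -1.41 to 0.71 and -1.45 to 0.67. That of CE minus BZA was -1.64 to 0.48. Gsta1 in CE differed by 0.52 from E2 (-0.51 to 1.55) and by -0.63 from CE+BZA (-1.66 to 0.40). Its difference from BZA was -1.08 (-2.12 to -0.05, FDR 0.425), or -1.01 without BZA mouse 3. None of these 4 genes differed between CE and another treatment at an FDR under 0.05.

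At a less strict threshold, an unadjusted limma p under 0.05 with a fold change above 2, 258 genes were higher in CE (10.1%) and 215 lower (8.45%). Counts of list members given below are to be read against these shares. All 3 CE mice were above all 3 Veh mice in 330 genes (13% of genes) and below them in 312 (12.3%). Of the 258 genes, 200 (77.5%) also had groups that did not overlap, as did 169 of the 215 (78.6%). Genes that met only this unadjusted threshold are described as higher or lower in CE, and none of them passed the FDR. Of all calls at this threshold 54.5% were higher. This share was 45.9% after quantile normalization and 42.7% without CE mouse 3, when 164 genes were higher and 220 lower. Both sets shared 125 of the 258 higher genes (48.4%) and 137 of the 215 lower genes (63.7%). The median difference over all genes was 0.06 and moved by less than 0.1 under either other scaling (0.02 and 0.01). Of the 87 genes the naming rule selected that were past their threshold, 26 lost it without CE mouse 3, 14 without CE mouse 6 and 18 without CE mouse 7. The losses were 21 without Veh mouse 1, 15 without Veh mouse 4 and 24 without Veh mouse 7.

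**Figure D3:**
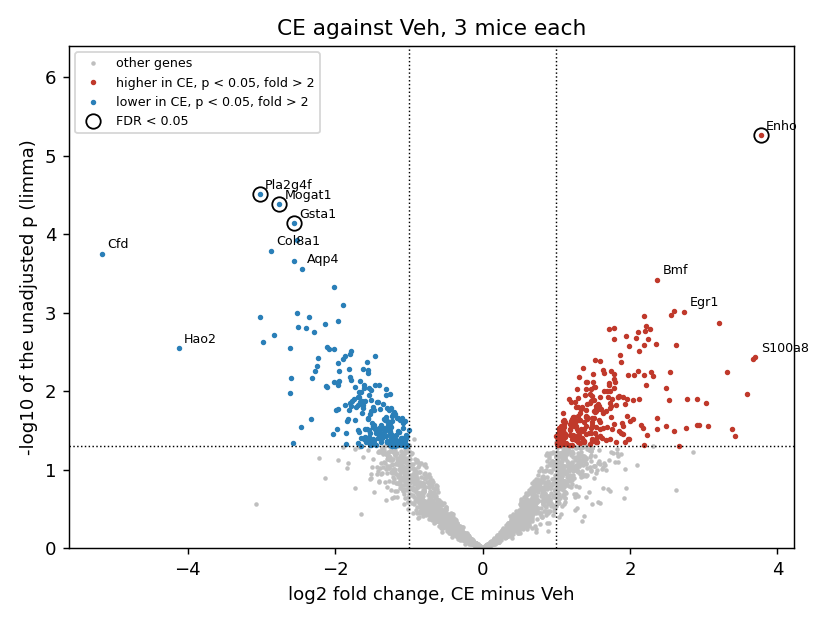
Log2 fold change of CE minus Veh (horizontal) against -log10 of the unadjusted limma p (vertical) for 2545 genes, 3 mice per group; dotted lines are the thresholds on p and fold change, and circles mark the 4 genes at an FDR under 0.05. Red points are the 258 genes higher in CE and blue points the 215 genes lower, with Enho highest and Cfd farthest to the left at -5.16.

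Of 25 genes of triglyceride synthesis and lipid droplets 9 were in the table, of which 4 were lower and 0 higher, where 8.45% and 10.1% of all genes were. Of the 9 differences 6 were negative and 3 positive. Besides Mogat1 these were Plin4, G0s2 and Fitm1. Plin4, a perilipin that coats lipid droplets, was -0.52, -1.64 and -1.53 in the CE mice and 0.83, 0.81 and 0.54 in the Veh mice, a difference of -1.96 ± 0.59 (FDR 0.181). G0s2, an inhibitor of adipose triglyceride lipase, differed by -1.66 ± 0.55, and Fitm1, a protein of lipid droplet formation, by -1.07 ± 0.49, which did not meet the threshold without CE mouse 3 (-0.99). The median of the 9 genes was -0.23, against 0.06 over all genes, and -0.99 without CE mouse 3. Lpin1, a phosphatidate phosphatase, had the largest positive value, 1.16 ± 0.64, and was above all Veh mice in all CE mice but did not meet the threshold.

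Of 20 genes of fatty acid uptake and those linked to Pparg, 6 were in the table, with 2 lower and 1 higher. Among all genes 8.45% were lower and 10.1% higher. Vldlr, the receptor for very low density lipoprotein, was -1.32, -0.36 and -0.78 in the CE mice and 1.10, 0.47 and 0.68 in the Veh mice. The CE mice were all below 0 and the Veh mice all above it, a difference of -1.57 ± 0.47. Cd36, a fatty acid transporter, differed by -1.03 ± 0.46, and Fabp5, a fatty acid binding protein, by 1.37 ± 0.63, or 1.25 without CE mouse 3, which did not meet it. Pparg, the nuclear receptor that drives lipid storage, was 0.25 or less in every CE mouse and 0.61 or more in every Veh mouse. Its difference of -0.80 ± 0.44 did not meet the threshold. Of 23 genes of fatty acid synthesis 4 were in the table and 0 met it, with Elovl6, a fatty acid elongase, at -1.09 ± 0.54. The same was true of 5 of 35 cholesterol and bile acid genes, among them Cyp7a1, the rate-limiting enzyme of bile acid synthesis, at -1.01 ± 0.53.

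All 16 of the 38 PPARα-linked and peroxisomal fatty acid genes that were in the table had a negative difference, from -4.13 to -0.23. Of these, 8 were lower, where 8.45% of all genes were, and the median was -1.15 against 0.06 over all genes. All but Cyp4a12b of the 8 had no overlap between groups, where 12.3% of all genes had every CE mouse below every Veh mouse. Hao2, a peroxisomal hydroxy acid oxidase, was -5.78, 0.06 and -1.12 in the CE mice and 1.73, 1.44 and 2.36 in the Veh mice, so that CE mouse 3 lay far below the other CE mice. Its difference of -4.13 ± 1.18 was -2.38 without that mouse. Cyp4a12a, a fatty acid omega-hydroxylase more abundant in males, was -2.50, -2.50 and -0.40 in the CE mice and 3.17, 0.69 and -0.19 in the Veh mice. Its Veh mice were widely spread, and Veh mouse 7 was close to CE mouse 7. The difference was -3.02 ± 0.77 (FDR 0.145).

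Among the related omega-hydroxylases, Cyp4a10 differed by -1.54 ± 0.52, Cyp4a14 by -1.52 ± 0.58, Cyp4a31 by -1.22 ± 0.47 and Cyp4a32 by -1.20 ± 0.46. These genes, and Cyp4a12a with Cyp4a12b, are close in sequence, so they are not independent counts. Ehhadh, a bifunctional enzyme of peroxisomal β-oxidation, differed by -1.03 ± 0.46. Without CE mouse 3 the median of the 16 genes was -0.88, and 4 of the 8 still met the threshold. Those that did not were Cyp4a14 (-0.94), Cyp4a31 (-0.96), Cyp4a32 (-0.96) and Ehhadh (-0.71). Against the same Veh mice, the median was -0.91 in E2, -0.98 in BZA and -1.28 in CE+BZA, and -0.76 in BZA without BZA mouse 3.

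Cytochrome P450 genes of families 2 and 3 went both ways. Of 46 listed, 15 were in the table, with 2 higher and 5 lower, where 10.1% and 8.45% of all genes were. The list median was -0.65. Cyp3a44, a female-predominant steroid and drug hydroxylase, was 1.42, 1.57 and 1.20 in the CE mice and -1.86, -1.75 and 0.00 in the Veh mice. The CE mice were tightly grouped, while Veh mouse 7 stood above the other Veh mice. The difference was 2.60 ± 0.65 (FDR 0.145). Cyp3a41a, a close relative, was also higher but with groups that overlapped, and it could share reads with Cyp3a44. Among the lower genes, Cyp2b10, a drug-metabolizing enzyme and a target of the receptor CAR, was -0.89, -1.32 and -1.01 in the CE mice and 0.87, 0.81 and 0.98 in the Veh mice, a difference of -1.96 ± 0.65. Cyp2b13 differed by -1.69 ± 0.62, Cyp3a57 by -1.63 ± 0.59, Cyp2a22 by -1.47 ± 0.62 and Cyp2c55 by -1.43 ± 0.52. Cyp2a22 was -1.90 in CE mouse 3 and 0.18 and 0.00 in the others. Without CE mouse 3 it differed by -0.80 and Cyp2b13 by -1.20, and neither met the threshold.

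Of 37 glutathione S-transferase and glutathione genes, 6 were in the table, with 1 higher and 2 lower. Among all genes 10.1% were higher and 8.45% lower. Gsta2 (chr9:78331018-78355788, minus strand) was -1.85, -0.08 and 0.01 in the CE mice and 1.17, 0.83 and 1.78 in the Veh mice. The difference was -1.90 ± 0.57 (FDR 0.175), and the sequence before its RefSeq start shares the marked run with Gsta1. Mgst2, a microsomal glutathione S-transferase, was higher at 1.80 ± 0.83, with 6 mice of all 15 at the lowest value, and at 1.37 without CE mouse 3 it did not meet the threshold. The remaining 3 genes did not meet the threshold.

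Liver genes that differ between the sexes showed no common direction. Of 35 female-biased genes 21 were in the table. Against 10.1% and 8.45% of all genes, 5 of them were higher and 5 lower. Their median of -0.23 turned to 0.08 without CE mouse 3. Cux2, a transcription factor expressed in female liver, was 0.00, 0.83 and 1.64 in the CE mice and -1.93, -1.26 and -1.93 in the Veh mice, a difference of 2.53 ± 0.91. Nipal1, a magnesium transporter family gene, was 0.97, 1.77 and 1.55 against -0.03, 0.00 and -0.20, a difference of 1.51 ± 0.60. The lower genes were Hao2, Cyp2b13, Vldlr, Cd36 and Sult2a5, a sulfotransferase (-1.25 ± 0.44).

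Of 41 male-biased genes 19 were in the table, with 2 higher and 3 lower, where 10.1% and 8.45% of all genes were. The list median was 0.40, and the most negative member was Cyp4a12a, at -3.02 ± 0.77. Egfr, the epidermal growth factor receptor, was 1.69, -0.34 and 0.43 in the CE mice and -1.99, -1.31 and -1.65 in the Veh mice, a difference of 2.24 ± 0.62. Serpina3k, a protease inhibitor, differed by 1.54 ± 0.57. Socs2, a feedback inhibitor of growth hormone signalling, is in neither of these sex-biased lists. It was 1.11, 1.27 and 2.38 in the CE mice and -1.0, -0.86 and 0.00 in the Veh mice. All CE mice exceeded 1 and no Veh mouse exceeded 0, a difference of 2.21 ± 0.58 (FDR 0.145).

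In the glucose and energy list 7 of 27 genes were in the table, with 1 higher and 2 lower. Among all genes 10.1% were higher and 8.45% lower. Besides Enho, 2 genes met the threshold, both lower, G6pc, the final enzyme of glucose release, at -1.25 ± 0.54 and Ppp1r3b, a glycogen-targeting subunit of protein phosphatase 1, at -1.20 ± 0.53. In both, the highest CE mouse was close to the lowest Veh mouse, at -0.63 and -0.39 for G6pc and at -0.23 and -0.19 for Ppp1r3b. G6pc differed by -0.75 without CE mouse 6 and Ppp1r3b by -0.78 without Veh mouse 4, and neither then met the threshold. Of 33 phospholipase A2 and eicosanoid genes 7 were in the table. Against 10.1% and 8.45% of all genes, 2 were higher and 1, Pla2g4f, was lower. Alox12, a lipoxygenase that makes 12-HETE from arachidonic acid, was 0.60, 0.37 and 0.05 in the CE mice and -0.73, -2.76 and -1.75 in the Veh mice, a difference of 2.09 ± 0.57 (FDR 0.152).

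Immediate early genes that met the threshold were higher in CE. Of 39 listed, 12 were in the table, with 3 higher and 0 lower, where 10.1% and 8.45% of all genes were. The list median was 0.94, and the same 3 genes met the threshold without CE mouse 3. Egr1, a zinc finger transcription factor induced by growth factors, was 2.08, 1.36 and 2.51 in the CE mice and -0.48, 0.00 and -1.77 in the Veh mice. The lowest CE mouse was more than 1 above the highest Veh mouse, and the difference was 2.73 ± 0.68 (FDR 0.145). Dusp2, a phosphatase of MAP kinases, differed by 1.74 ± 0.68 and Junb, an AP-1 subunit, by 1.5 ± 0.48. Dusp1, another MAP kinase phosphatase, had the only negative value of the list, -0.81 ± 0.75.

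Of 21 circadian clock genes 8 were in the table and 2 were higher, where 10.1% of all genes were. These 2 were the clock-output factor Dbp at 1.31 ± 0.52 and the repressor Bhlhe41 at 1.48 ± 0.68. Times of tissue collection are not given in the sources used here. Of 31 heat shock and unfolded protein response genes 9 were in the table and 2 were higher, again where 10.1% of all genes were. They were Sdf2l1, an endoplasmic reticulum protein, at 1.30 ± 0.51 and Fkbp5, a co-chaperone of steroid receptors, at 1.54 ± 0.58. The most negative was the chaperone Hspa1a, at -0.97 ± 0.62. Fkbp5 was 1.01 without Veh mouse 7, and Sdf2l1 was 0.99 without CE mouse 3, and neither then met the threshold. The median of these 9 genes, 0.97, was -0.06 without CE mouse 3.

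**Figure D4:**
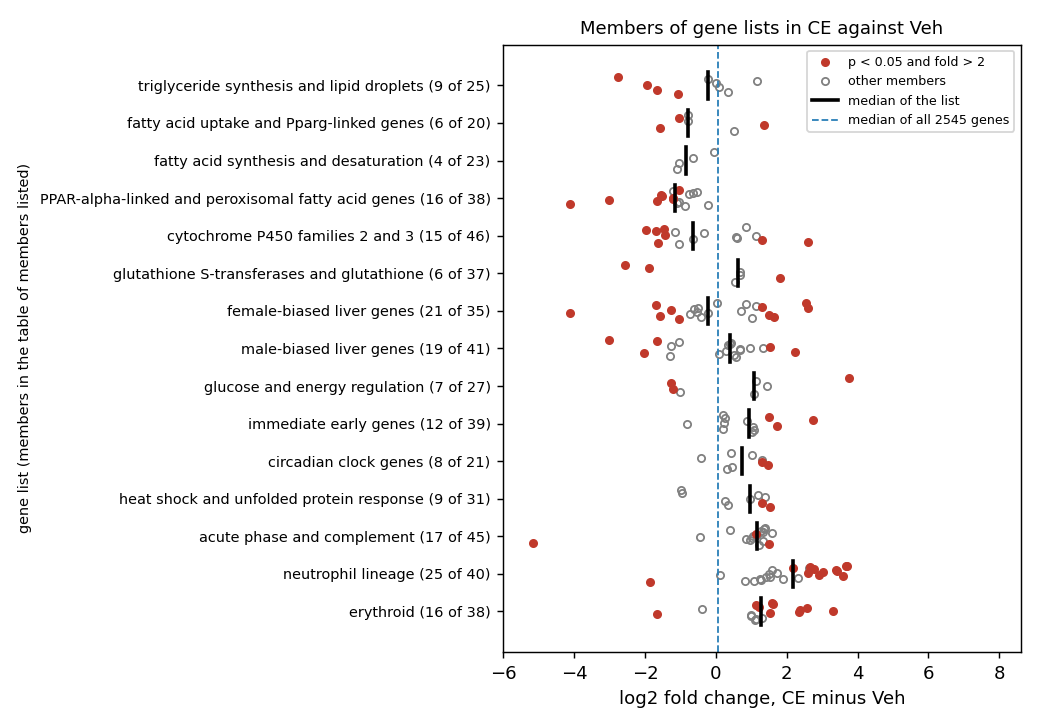
Log2 fold change of CE minus Veh (horizontal) for members of 15 gene lists (vertical), with the number in the table of the number listed in parentheses; filled red points met an unadjusted p under 0.05 and a fold change above 2, open points did not, black bars are list medians and the dashed line the median of all genes. The PPARα-linked genes lie entirely below 0 with a median of -1.15, and the neutrophil-lineage genes have the highest median, 2.19.

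Among secreted liver proteins, 17 of 45 acute phase and complement genes were in the table, with 2 higher and 1 lower. Over all genes 10.1% were higher and 8.45% lower. The list median was 1.16. Cfd, complement factor D or adipsin, had the most negative difference of any named gene. It was -0.43, -3.0 and 0.53 in the CE mice and 4.89, 4.55 and 3.15 in the Veh mice. No CE mouse came near the Veh mice, yet the CE mice varied among themselves, and the difference of -5.16 ± 1.08 had an FDR of 0.0645. Cfd is also made by adipocytes. Of 26 adipocyte markers 15 were in the table, with a mean of -0.28 to 0.16 in the CE mice and -0.20 to 0.27 in the Veh mice. Those means include Cfd itself, Car3 (-1.82) and Tusc5 (1.67). The defining markers Plin1, the adipocyte perilipin, and Adipoq, adiponectin, had 12 and 11 of the 15 mice at the lowest value, so their values say little. The part of adipocyte content in the Cfd difference was not tested.

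The higher acute phase genes were Lbp, which binds lipopolysaccharide, at 1.13 ± 0.52 and Itih3, an inter-alpha-trypsin inhibitor chain, at 1.51 ± 0.57. Without CE mouse 3 the median of the acute phase list was 0.50 and 0 members were higher, with Lbp at 0.88 and Itih3 at 1.0. Lcn2, lipocalin 2, which neutrophils also carry, was 4.31 in CE mouse 3 and -0.72 and 0.00 in the others. Of 33 coagulation genes 3 were in the table, and F11, coagulation factor XI, was 0.36, 0.53 and 0.62 in the CE mice and -1.11, -0.77 and -0.54 in the Veh mice, a difference of 1.31 ± 0.42. F13a1, a transglutaminase of clot stabilization, was 4.41 in CE mouse 3 and -2.0 and 1.11 in the others. Trf, transferrin, the only one of the 3 hepatocyte-defining genes in the table to meet the threshold, was higher at 1.21 ± 0.48 but was 0.69 without Veh mouse 7.

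Neutrophil-lineage genes had the largest positive median of the lists, and CE mouse 3 stood far above the other mice. Of 40 listed, 25 were in the table, with 11 higher and 1 lower, where 10.1% and 8.45% of all genes were. The median was 2.19 against 0.06 over all genes, and it was 0.58 with 2 genes higher once CE mouse 3 was left out. S100a8, a calcium-binding protein abundant in neutrophils, was 5.66, 0.37 and 1.49 in the CE mice and -1.87, -1.20 and -0.49 in the Veh mice. Its partner S100a9 was 5.62, 0.48 and 1.40 against -1.69, -0.77 and -1.05. These 2 genes were above the Veh range in all 3 CE mice, and without CE mouse 3 they still differed by 2.12 and 2.11, against 3.70 ± 1.10 and 3.67 ± 1.10 with it. Ngp, a neutrophil granule protein, was 7.41 in CE mouse 3, and 0.40 and 0.34 in the others beside 0.22 in Veh mouse 1, and its difference of 3.43 ± 1.51 was 1.08 without CE mouse 3. Mpo, myeloperoxidase, was 7.69 in CE mouse 3 but 0.00 in CE mouse 6, below Veh mouse 4 at 2.17. Serpinb1a, an inhibitor of neutrophil proteases that other cells also express, was lower at -1.87 ± 0.55. Among cytokine and chemokine genes, 20 of 51 in the table, the neutrophil receptor Cxcr2 was 4.69 in CE mouse 3, and the chemokine Ccl22 was lower in all CE mice at -2.01 ± 0.58.

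Of 38 erythroid genes 16 were in the table, with 9 higher and 1 lower, where 10.1% and 8.45% of all genes were. The erythroid genes had a median of 1.26 against 0.06 over all genes. Their mean was 1.79, 0.95 and 0.08 in CE mice 3, 6 and 7 and 0.10, -0.59 and -0.66 in Veh mice 1, 4 and 7, so that CE mouse 7 was level with Veh mouse 1. Trim10, a protein of red cell maturation, was 2.35, 2.74 and 0.36 in the CE mice and at its lowest value, -0.75, in every Veh mouse. Slc4a1, the anion exchanger of red cells, differed by 3.31 ± 1.04, but Veh mouse 1 (0.45) exceeded CE mouse 7 (0.15). The globin genes Hba-a1 and Hba-a2, which are near-identical, differed by 1.59 ± 0.60 and 1.60 ± 0.60, and both by 1.40 without CE mouse 3, which did not meet the threshold. Tfrc, the transferrin receptor, was lower at -1.66 ± 0.60, with 0.80, -1.43 and -0.99 in the CE mice against 0.88 to 1.37 in the Veh mice. Without CE mouse 3 the erythroid median was 0.94 with 4 genes higher. The part of blood content in these differences was not tested.

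Among macrophage genes 8 of 41 were in the table, with 2 higher and 1 lower, where 10.1% and 8.45% of all genes were. Marco, a scavenger receptor, was higher at 1.91 ± 0.83, with CE mouse 3 at 2.82 and the others at 0.63 and 0.64, and was 1.18 without that mouse, which did not meet the threshold. Gpnmb, a glycoprotein of lipid-laden macrophages, was lower at -1.47 ± 0.67, but its groups overlapped, with CE mouse 3 (0.19) above Veh mouse 1 (0.00). In B and plasma cells 9 of 29 genes were in the table, and Pou2af1, a B-cell coactivator, was higher at 2.22 ± 0.74, or 1.47 without Veh mouse 1. Ighg2c, an immunoglobulin heavy chain, was 3.04, 1.13 and 1.11 in the CE mice and -2.35, -1.11 and -0.90 in the Veh mice, a difference of 3.21 ± 0.84 (FDR 0.145). Nkg7, a granule protein of cytotoxic lymphocytes, was above the Veh range in all CE mice, at 1.5 ± 0.49.

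Of 20 cholangiocyte genes 10 were in the table, with 1 higher and 2 lower, where 10.1% and 8.45% of all genes were. The higher one was Cdh1, E-cadherin (1.64 ± 0.51). Krt23, a keratin, was 0.00, -0.56 and 1.04 in the CE mice and 3.19, 2.53 and 3.70 in the Veh mice, and every Veh mouse exceeded 2 while no CE mouse reached 2. The difference was -2.98 ± 0.83 (FDR 0.159). Aqp4, a water channel, was 0.04, -1.59 and -0.47 against 1.69, 1.42 and 2.22, a difference of -2.45 ± 0.53 (FDR 0.0779). In the adipocyte list Car3, a carbonic anhydrase that hepatocytes also express, was lower at -1.82 ± 0.56, with CE mouse 3 at -2.04 and the others at -0.41 and -0.03, and it was -1.21 without that mouse. Tusc5, a regulator of glucose transporter trafficking, was higher at 1.67 ± 0.76, or 1.55 without CE mouse 3, which did not meet the threshold. Of the matrix genes, 10 of 46 in the table, Mmp12, a macrophage elastase, was lower at -2.60 ± 0.84, although its Veh mice ranged from 0.43 to 4.60 and overlapped the CE mice, and it was -1.44 without Veh mouse 7.

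Cell cycle genes had 2 of 10 higher, where 10.1% of all genes were, Ccnb2 and Ccne1, cyclins of mitosis and of S-phase entry, at 1.47 ± 0.53 and 1.53 ± 0.59, and 0 without CE mouse 3. Ccne1 was 0.98 without Veh mouse 7, and its groups overlapped, with CE mouse 6 (-0.26) below Veh mouse 1 (0.04). Irf7, a transcription factor of the interferon response, was higher at 1.04 ± 0.44 (0.91 without CE mouse 3, under the threshold) and was the only one of 3 interferon genes in the table to be so. Mylpf, a muscle myosin light chain, was higher at 1.27 ± 0.53, the single call among 6 striated muscle genes. None of 23 pancreas and gut genes met the threshold (0 of 23), nor did either of the 2 endothelial genes or any of 6 genes of estrogen receptors and estrogen metabolism (0 of 6). In the last list Tff3, a trefoil factor, was 1.57, 0.00 and -2.17 in the CE mice.

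Several genes outside these lists separated the groups. Bmf, a pro-apoptotic member of the BCL2 family, was 1.0, 1.95 and 1.99 in the CE mice and -0.74, -0.16 and -1.27 in the Veh mice, a difference of 2.37 ± 0.53 (FDR 0.0966). Adamts6, a secreted metalloproteinase, was 2.15, 2.42 and 1.54 against -0.99, 0.28 and 0.00, a difference of 2.27 ± 0.61. Csad, an enzyme of taurine synthesis, was 0.61, 1.76 and 1.41 against -0.54, -0.19 and -1.83, a difference of 2.11 ± 0.57. In these 3 genes even the lowest CE mouse was above every Veh mouse. Ldoc1l, a gene of retrotransposon origin, differed by 1.78 ± 0.49.

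On the lower side, Col8a1, a collagen chain of vessel walls, was -2.91, -1.74 and -0.80 in the CE mice and 0.89, 1.18 and 1.09 in the Veh mice, a difference of -2.87 ± 0.59 (FDR 0.0645). Angptl1, an angiopoietin-like secreted protein, was -2.34, -1.06 and -0.65 against 1.73, 0.83 and 1.06, a difference of -2.56 ± 0.55 (FDR 0.0702). Lgals1, galectin-1, was 0.01, -0.25 and -0.01 against 1.65, 1.51 and 2.25, a difference of -1.89 ± 0.46. In each the Veh mice lay above 0.8 and the CE mice at or below 0.01. Raet1d and Raet1e, neighbouring ligands of the NKG2D receptor with similar sequences, differed by -2.14 ± 0.56 and -1.96 ± 0.51. A4gnt, a glycosyltransferase of mucins, differed by -2.51 ± 0.63, Ttc25, a protein of ciliary motility, by -2.35 ± 0.60, and Rasl2-9, a Ran-like GTPase gene, by -2.51 ± 0.66.

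**Figure D5:**
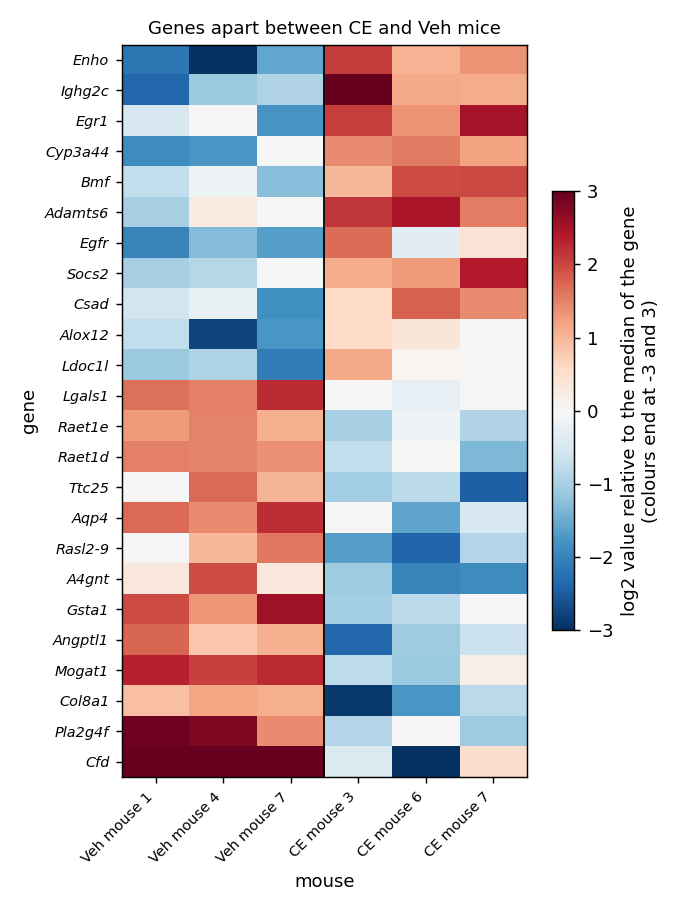
Log2 values of 24 genes (rows) in the 3 Veh and the 3 CE mice (columns), centred on the 15-mouse median of the gene, with colours ending at -3 and 3. The genes are the 4 at an FDR under 0.05 and others from the 12 per direction with the smallest p whose groups did not overlap, and they were chosen for that separation, from Enho (3.77) at the top to Cfd (-5.16) at the bottom.

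CE was also set directly against each other treatment, contrasts in which the Veh mice entered only through the shared spread. Between CE and E2, 1 gene passed (0.0393%). This was A1bg, a plasma glycoprotein more abundant in females, at 0.00, 0.77 and 1.51 in the CE mice and 4.03, 4.59 and 4.91 in the E2 mice, 3.75 ± 0.60 lower in CE (FDR 0.0241). The call was lost without CE mouse 3, CE mouse 6, E2 mouse 3 or E2 mouse 5, each of which left 0 genes. Its means in CE and Veh were 0.76 ± 0.75 and 0.72 ± 0.77 (SD, n = 3), a difference of 0.04 ± 0.60 with a 95% interval of -1.23 to 1.30, whose sign changed under other settings. Cyp3a44 was higher in E2 than in CE as well, with means of 3.70 ± 0.95 (SD, n = 3) and 1.40 ± 0.19, but at an FDR of 0.387 this did not pass. Egr1 was higher in CE than in E2 by 2.60 ± 0.68 (FDR 0.310) and Adamts6 by 1.98 ± 0.61 (FDR 0.442).

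Between CE and CE+BZA, 1 gene passed (0.0393%), Gm9847, annotated as a processed pseudogene, which was 3.28 ± 0.56 higher in CE at an FDR of 0.0499. The count was 0 without any 1 of the 6 mice. Socs2 followed at 2.84 ± 0.58 (FDR 0.0769), with means of 1.59 ± 0.69 in CE and -1.25 ± 0.37 in CE+BZA (SD, n = 3). Adamts6 was 2.82 ± 0.61 higher in CE than in CE+BZA (FDR 0.0999), and Egr1 2.81 ± 0.68 higher (FDR 0.133). Cyp4a12a was 3.11 ± 0.77 lower in CE (FDR 0.145), with means of -1.80 ± 1.21 against 1.31 ± 0.16. Of its CE mice, 2 were at the lowest value. Between CE and BZA, 0 genes passed in limma (0%), while 286 met the unadjusted threshold, as did 231 between CE and E2 and 367 between CE and CE+BZA. Without CE mouse 3, BZA mouse 1 or BZA mouse 4 the count against BZA was 1, 3 or 6. Against BZA, Socs2 differed by 2.51 ± 0.58 (FDR 0.178) and Bmf by 1.84 ± 0.53 (FDR 0.277). Without BZA mouse 3 these were 2.18 and 1.51, and the counts against BZA were 0 at the FDR and 255 unadjusted. CE and E2 were given at different doses and by different routes of release, so their contrast is one of regimens.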

How the data were processed

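Total RNA from liver was sequenced for 15 mice, 3 in each of 5 groups taken from the sample labels. The authors mapped trimmed reads with TopHat, quantified genes with StrandNGS, applied DESeq normalization and deposited log2 values centred on the 15-mouse median of the gene. The submitters' processing notes list CASAVA 1.8.2, TopHat 0.5 and the builds mm10 and hg19. The labels describe reads from both ends and 2 sequenced samples per group, while the methods of the study describe single-end reads and 3 per group. The libraries were from a stranded kit, but counting by strand is not stated, so overlapping and antisense genes are uncertain. The filter behind the gene list is not given in the sources used here.

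No pseudocount, filter or further scaling was applied to the deposited log2 values. A model of 5 groups was fitted with limma 3.58.1 in R 4.3.3 and tested on simulated data. Differences are given with the SE of that fit, and p-values measure the spread among separate mice. Tables and plots were made with Python 3.11.15, pandas 2.3.3 and matplotlib 3.10.9. Gene positions are from the GENCODE annotation of GRCm38 by symbol and entered no test. Genes were named if they passed the FDR, or were among the 12 per direction with the smallest p, a fold change above 2, no overlap between groups and fewer than 2 mice at the lowest value. From each of 32 gene lists the members with the largest positive and negative difference and those that met the unadjusted threshold without overlap could be named, as could genes measured by qPCR in the study. A few other members were named after their values were seen (Mpo, Plin1, Adipoq, Cyp4a12b, Cyp3a41a and Gm9847). Some genes that meet the rule are not reported here. The lists and the rule were chosen with earlier results of these data known. Alternatives were quantile normalization, centring of each mouse, a filter on genes at the lowest value, only the 2 groups compared, a mean-variance trend, a replicate block, no fold change threshold and leaving out each mouse. Weights per mouse and leaving out BZA mouse 3 were added after seeing the data.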

Additional observations from a re-analysis of the deposited data

How the results depend on the processing

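The counts at an FDR under 0.05 were small and moved with most settings. For CE against Veh, 1 gene was higher and 3 lower. With only the 2 groups compared both counts were 0, and without genes with at least 2 mice at the lowest value they were 2 and 6. Quantile normalization gave 9 lower genes, weights per mouse gave 7 higher and 11 lower, and leaving out BZA mouse 3 gave 2 and 5. Leaving out 1 CE or Veh mouse gave 0 to 2 higher and 0 to 3 lower genes. At the unadjusted threshold it gave 164 to 295 higher and 147 to 220 lower genes, against 258 and 215. The gene between CE and E2 was lost with only the 2 groups (0), with a mean-variance trend (0) and without BZA mouse 3 (0), and leaving out 1 mouse gave 0 to 1. Between CE and CE+BZA the count was 9 after quantile normalization, 5 without genes at the lowest value, 6 with weights, and 0 with centring, with only the 2 groups, without BZA mouse 3 and without any 1 mouse (0 to 0). Between CE and BZA it was 2 with only the 2 groups and 0 to 6 without 1 mouse. The settings with only 2 groups or without a mouse fit fewer samples by construction, and for the others the cause was not tested.

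Replicate numbers recur between groups, but Veh and CE share only number 7. Over the 13 same-numbered pairs of all groups, the correlation of deviations ran from -0.05 to 0.10, with 0 above 0.1. Only 1 of these pairs, CE mouse 7 with Veh mouse 7 at -0.04, joins the 2 groups compared. Pairs with different numbers were not set beside them, so whether the numbers mark a pairing or a shared batch was not tested. With the number as a replicate block, in which mice with an unshared number carry no weight, the FDR counts for CE against Veh were 0 and 0, the unadjusted counts 171 and 109, and the counts against E2 and CE+BZA 0 and 0.

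Enho passed in 9 of 14 alternatives (FDR 0.00292 to 0.231), Mogat1 in 7 of 14 (0.0127 to 0.328), Gsta1 in 7 of 14 (0.0200 to 0.328) and Pla2g4f in 7 of 13 (0.00406 to 0.229), and none of the 4 changed sign in any. Of 1566 alternative values of the 113 genes the rule named, 1326 kept their direction and side of the threshold, 197 lost the threshold, 30 gained it and 13 changed sign. The sign changes were in genes that had not met the threshold. With 1 mouse left out, Wnt9b ran from -0.44 to 0.38, A1bg from -0.35 to 0.42, Ly6d from -1.54 to 0.19, Plaur from -0.51 to 0.093, Mmp8 from -0.15 (without CE mouse 3) to 3.08 and Dusp1 from -1.32 to 0.0054. Wnt9b was also 0.17 with weights per mouse, and A1bg -0.0037 with centring.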
